A study of Mus musculus with 8 samples.

Results

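The S100 genes encode small calcium-binding proteins, and 10 of them were followed here in dorsal skin of mice treated with imiquimod cream (IMQ). The genes were S100a8 and S100a9, whose products pair to form calprotectin, and S100a1, S100a3, S100a4, S100a6, S100a10, S100a11, S100a14 and S100a16. They were named before this work as members of the family, but with earlier results of these data known. Each was taken as the Affymetrix probe set annotated with its symbol alone. All 10 had 1 such probe set, among 22180 genes with a level on every array. Levels are log2 values after robust multi-array averaging (RMA), a scale on which 1 unit is a doubling. They are compared here between arrays, not between genes, except where a gene is called dim.

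Male mice of 2 genotypes gave the skin. The KO mice carried the B6.Cg-Il22ra1tm1.1Koll/J allele of the gene for the IL-22 receptor alpha chain, and the WT mice were C57BL/6. Psoriasis-like skin was induced with 83.3 mg of cream at 5% IMQ, given daily on back and ear over days 1 to 7. Treatment groups also received a cream 6 hours after each IMQ dose, either vehicle or alloferon. Arrays with IMQ were labelled KO_IMQ_Allo (KO, IMQ, alloferon), KO_IMQ, KO_IMQ_B (KO, IMQ) and WT_IMQ, and arrays without IMQ in the label were KO_Allo (KO, alloferon), KO_CTRL, KO_CTRL-B (KO) and WT_CTRL, with 1 array each. The meaning of the letter B, and whether a CTRL mouse received a vehicle, are not given in the sources used here. The study states 4 mice per group, and whether an array holds 1 mouse or a pool is not given. The cells in which the Il22ra1 allele was deleted are not given either.

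An arm below is an IMQ array with the array labelled alike but for IMQ, which gave 4 arms (KO Allo, KO plain, KO B and WT plain). That the mice of an arm differed in nothing else, and that the letter B ties KO_IMQ_B to KO_CTRL-B, are assumptions from the labels. The Il22ra1 probe set read 8.59 to 9.40 on the 6 KO arrays, against 8.23 to 8.64 on the 2 WT arrays, so it did not check the genotype, and every direction between KO and WT rests on the labels. Markers of the labelled tissue were compared between arrays: the median of 7 keratinocyte markers lay between 10.96 and 12.46 and that of 7 fibroblast markers between 11.58 and 12.06 over the 8 arrays. Tissue content differed between arrays. The median of 17 hair follicle markers ranged from 5.19 to 7.38 with IMQ and from 6.74 to 9.77 without IMQ, and that of 14 skeletal muscle markers from 7.998 to 9.08 with IMQ and from 8.61 to 11.15 without IMQ. In whole skin, fewer cells of a type and less RNA per cell cannot be told apart.

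S100 proteins bind calcium through EF-hand loops, which exposes a surface that docks onto partner proteins. Calprotectin is a cytosolic protein of neutrophils and monocytes that keratinocytes also make in inflamed or wounded skin, including psoriasis. Outside cells it binds zinc and manganese, which microbes need, and it can act on Toll-like receptor 4 and on RAGE, the product of Ager. Other members have different sites of expression: S100a3 is a protein of the hair cuticle, S100a1 is best known in muscle, and S100a10 and S100a11 are partners of annexins at membranes.

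All 10 members lie on chromosome 3 in RefSeq's GRCm38.p6 annotation, and S100a8 and S100a9 are next to each other, with 0 annotated genes between them. The promoter sequences of S100a8 and S100a9 are shown because these neighbours rose together with IMQ. That of S100a11 is shown because it lies on the same chromosome, though not beside them, with a difference of another size. Each is the 250 bases before the start site from RefSeq, on the gene's own strand, and 8 of the 10 members had an entry in the promoter table. Capitals mark matches to TTGCNNAA (a C/EBP motif), TGANTCA (AP-1), TTCNNNGAA (STAT) and an NF-kB motif (GGG, any 5 bases, then CC) on either strand, and to TATAAA on the gene's strand.
S100a8, chr3:90668821-90669070, plus strand: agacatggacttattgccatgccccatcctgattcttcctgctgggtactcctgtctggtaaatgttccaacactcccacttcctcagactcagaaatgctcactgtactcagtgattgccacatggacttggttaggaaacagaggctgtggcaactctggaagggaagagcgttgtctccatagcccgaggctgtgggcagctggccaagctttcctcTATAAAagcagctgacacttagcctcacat
S100a9, chr3:90695722-90695971, minus strand: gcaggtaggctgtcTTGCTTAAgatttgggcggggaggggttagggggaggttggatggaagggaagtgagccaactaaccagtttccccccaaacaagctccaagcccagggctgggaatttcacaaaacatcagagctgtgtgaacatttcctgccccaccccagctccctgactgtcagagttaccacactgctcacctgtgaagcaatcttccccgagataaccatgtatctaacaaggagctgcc
S100a11, chr3:93520246-93520495, plus strand: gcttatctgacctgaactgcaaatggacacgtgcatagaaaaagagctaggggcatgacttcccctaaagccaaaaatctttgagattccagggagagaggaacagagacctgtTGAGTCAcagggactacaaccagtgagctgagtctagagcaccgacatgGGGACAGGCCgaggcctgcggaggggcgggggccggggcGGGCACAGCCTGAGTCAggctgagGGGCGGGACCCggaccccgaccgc

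The S100a8 window held 1 TATAAA match, 30 bases before the start, and no other motif searched. The S100a9 window held 1 TTGCNNAA match and no other. The S100a11 window held 2 TGANTCA matches and 4 NF-kB matches, 2 of which overlap each other. Of 32851 RefSeq windows of this length, 7.59% held TATAAA, 9.56% TTGCNNAA, 6.75% TGANTCA, 7.02% TTCNNNGAA and 45.8% the NF-kB motif. A match describes the letters only. The motifs printed here were thus not shared by the windows of S100a8 and S100a9, and nothing follows from that about any factor.

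The effect of IMQ was measured first, across the 4 arms. S100a8 and S100a9 rose together by about 5 log2 units, S100a3 fell, and the other 7 members differed by -0.39 to 0.37 log2 units. S100a8 read 11.30, 11.92, 11.52 and 11.14 on KO_IMQ_Allo, KO_IMQ, KO_IMQ_B and WT_IMQ, against 7.92, 5.27, 5.74 and 5.57 on KO_Allo, KO_CTRL, KO_CTRL-B and WT_CTRL. The IMQ arrays lay close together and all above the others, among which KO_Allo stood highest. The mean was 11.47 ± 0.34 with IMQ and 6.12 ± 1.21 without IMQ (SD, n = 4 arrays each), a 40.6-fold difference. In log2 units this was 5.34 ± 0.47 (moderated SE from 4 arms, limma adjusted p = 0.0124). Moderated means that limma draws the variance of a gene toward that of all genes.

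S100a9 read 10.87, 11.67, 11.08 and 10.48 on KO_IMQ_Allo, KO_IMQ, KO_IMQ_B and WT_IMQ, against 7.66, 6.05, 6.01 and 5.60 on KO_Allo, KO_CTRL, KO_CTRL-B and WT_CTRL. The order of the arrays was the same as for S100a8 with IMQ (KO_IMQ highest, WT_IMQ lowest), and KO_Allo was again the highest array without IMQ. S100a9 averaged 11.03 ± 0.50 with IMQ and 6.33 ± 0.91 without IMQ (SD, n = 4 arrays each), a 25.9-fold difference, or 4.70 ± 0.36 log2 units (limma adjusted p = 0.0124). The S100a9 difference was smaller than that of S100a8 in all 4 arms, by 0.65 ± 0.36 log2 units (SD, n = 4 arms).

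S100a3, the cysteine-rich protein of the hair cuticle, went the other way. It read 6.36, 6.21, 8.27 and 6.22 on KO_IMQ_Allo, KO_IMQ, KO_IMQ_B and WT_IMQ, against 9.55, 7.43, 10.79 and 10.60 on KO_Allo, KO_CTRL, KO_CTRL-B and WT_CTRL. Every arm was lower with IMQ, but the groups overlapped, because KO_IMQ_B read above KO_CTRL. S100a3 fell by 2.83 ± 0.45 log2 units (moderated SE from 4 arms, limma adjusted p = 0.0308), or 7.09-fold. The difference was -3.19 in KO Allo, -1.22 in KO plain, -2.52 in KO B and -4.38 in WT plain, a spread between arms of 1.32 (SD), just under that of S100a8 (1.39).

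**Figure D1:**
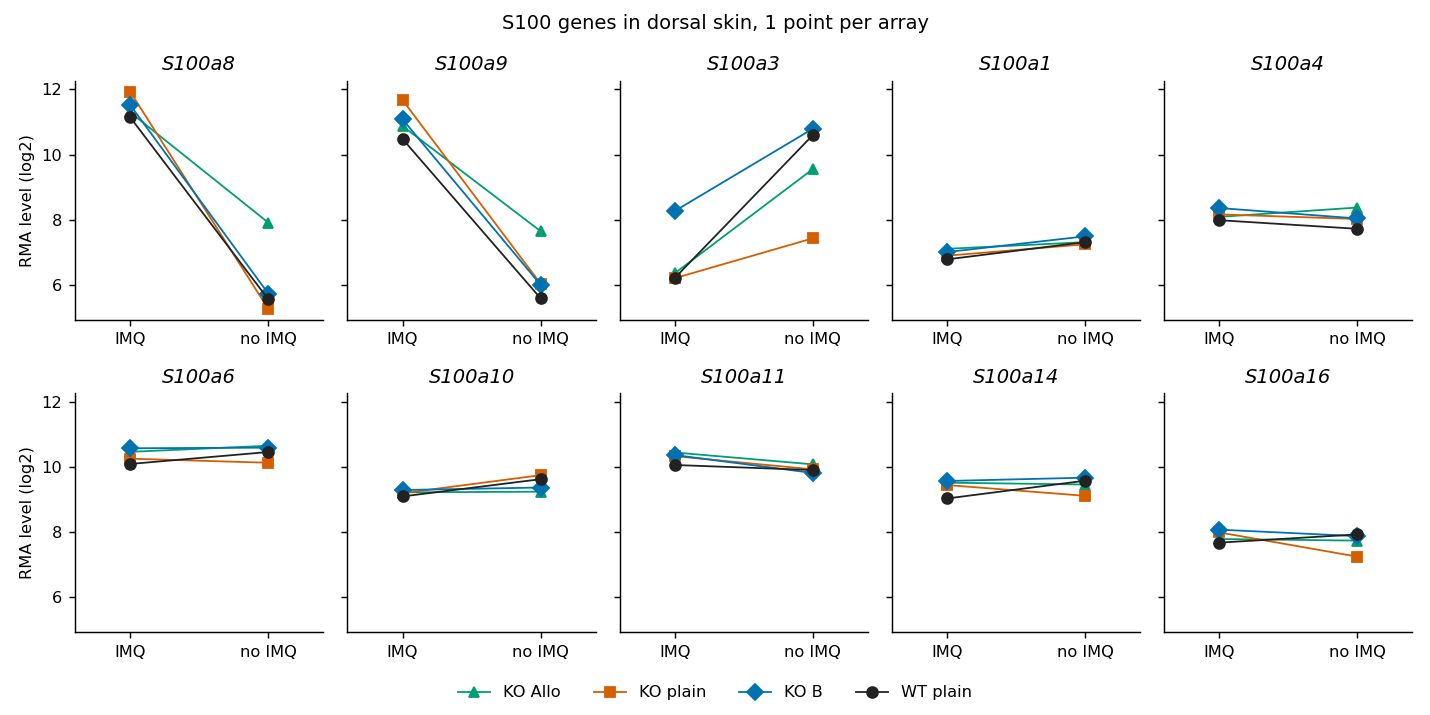
Level of each S100 member on each array, in log2 RMA units, with 1 point per array and lines joining the arrays of an arm (IMQ left, no IMQ right). S100a8 and S100a9 sat between 10.48 and 11.92 with IMQ and between 5.27 and 7.92 without IMQ. S100a3 was lower with IMQ in each arm. The other members differed less, by -0.55 to 0.74 log2 units in single arms.

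In limma, 2 of the 10 members rose and 1 fell at an adjusted p under 0.05, where 1.9% of all 22180 genes rose, 1.19% fell and 3.09% were called in either direction. At an unadjusted p under 0.05, 5 of 10 members and 18.8% of all genes passed. The levels with and without IMQ did not overlap for S100a8 and S100a9, higher with IMQ, as for 5.96% of all genes, and for S100a1, lower with IMQ, as for 5.04% of all genes. The median difference was -0.09 log2 units over the 8 members other than calprotectin and -0.0078 over all genes, and the median size of difference was 0.24 and 0.13 log2 units.

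These calls were lost under several alternatives. Without either array of WT plain, S100a8, S100a9 and S100a3 kept differences of 5.27, 4.64 and -2.31 log2 units, with adjusted p = 0.0775, 0.0775 and 0.120. Without either array of KO B they measured 5.20, 4.57 and -2.93 (adjusted p = 0.0714, 0.0680 and 0.141). With the muscle median as a covariate they measured 3.78, 3.57 and -3.57 (adjusted p = 0.438, 0.365 and 0.531). With the hair follicle median they measured 6.66, 5.59 and 1.64 (adjusted p = 0.868 for each). Either covariate left 0 of all genes called. Both medians were themselves lower with IMQ in every arm, so these fits cannot separate tissue content from IMQ. The S100a3 call was also lost with a trended robust prior (adjusted p = 0.0935) and with no arm block (adjusted p = 0.0716).

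Among the annexin partners, S100a11, which can be cross-linked into the cornified envelope in human keratinocytes, was higher with IMQ in 4 of 4 arms. It read 10.44, 10.33, 10.36 and 10.06 on KO_IMQ_Allo, KO_IMQ, KO_IMQ_B and WT_IMQ, against 10.08, 9.93, 9.82 and 9.90 on KO_Allo, KO_CTRL, KO_CTRL-B and WT_CTRL. Only WT_IMQ, just below KO_Allo, made the groups overlap, and the difference of 0.37 ± 0.10 log2 units did not pass (adjusted p = 0.108). A processed copy, S100a11-ps, has its own probe set, and whether the S100a11 probes also read it was not tested.

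S100a10, also called p11, the partner of annexin A2, was lower with IMQ in 4 of 4 arms but hardly so in KO Allo and KO B. It read 9.22, 9.20, 9.29 and 9.10 on KO_IMQ_Allo, KO_IMQ, KO_IMQ_B and WT_IMQ, against 9.24, 9.75, 9.37 and 9.62 on KO_Allo, KO_CTRL, KO_CTRL-B and WT_CTRL. The highest arrays were KO_CTRL and WT_CTRL, which also had the highest skeletal muscle medians (11.15 and 10.93). The mean difference of -0.29 ± 0.13 did not pass (adjusted p = 0.277), and with the muscle median as a covariate it was 0.11 ± 0.19 (adjusted p = 0.968). That median was itself lower with IMQ in every arm, so the fit cannot separate muscle content from IMQ.

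S100a1, a regulator of calcium release in muscle, read 7.11, 6.90, 7.01 and 6.79 on KO_IMQ_Allo, KO_IMQ, KO_IMQ_B and WT_IMQ, against 7.32, 7.25, 7.50 and 7.32 on KO_Allo, KO_CTRL, KO_CTRL-B and WT_CTRL. All IMQ arrays were below all others. The difference of -0.39 ± 0.10 log2 units missed the threshold (adjusted p = 0.0868) and passed when dim genes were left out of the test (adjusted p = 0.0476; 0.0476 to 0.977 over the alternatives run). With the muscle median as a covariate it measured -0.34 ± 0.21 (adjusted p = 0.848), a fit that again cannot separate muscle content from IMQ. Among the arrays without IMQ, S100a1 was lowest on KO_CTRL (7.25), where the muscle median was highest (11.15). It was highest on KO_CTRL-B (7.50), where the muscle median was 8.92. The part of muscle content in the S100a1 difference was not tested.

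The epithelial members S100a14 and S100a16 had no common direction. S100a14 read 9.52, 9.44, 9.57 and 9.03 on KO_IMQ_Allo, KO_IMQ, KO_IMQ_B and WT_IMQ, against 9.46, 9.11, 9.67 and 9.58 on KO_Allo, KO_CTRL, KO_CTRL-B and WT_CTRL, a mean difference of -0.06 ± 0.15 (adjusted p = 0.865). S100a16 read 7.79, 7.99, 8.08 and 7.68 on the same IMQ arrays, against 7.74, 7.25, 7.88 and 7.93 on the same arrays without IMQ, a mean difference of 0.18 ± 0.16 (adjusted p = 0.609). Both were lower with IMQ in WT plain and higher in KO plain.

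S100a4, known as a fibroblast and leukocyte protein, and S100a6, or calcyclin, were nearly level. S100a4 ranged from 7.99 to 8.36 with IMQ and from 7.73 to 8.38 without IMQ, and differed by 0.11 ± 0.12 log2 units (adjusted p = 0.703). S100a6 ranged from 10.09 to 10.57 with IMQ and from 10.13 to 10.65 without IMQ, and differed by -0.11 ± 0.11 (adjusted p = 0.653). The 95% interval of the mean over the 4 arms reached from -0.19 to 0.41 for S100a4 and from -0.37 to 0.15 for S100a6. A single arm can lie outside it, as S100a4 did in KO Allo (-0.29).

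**Figure D2:**
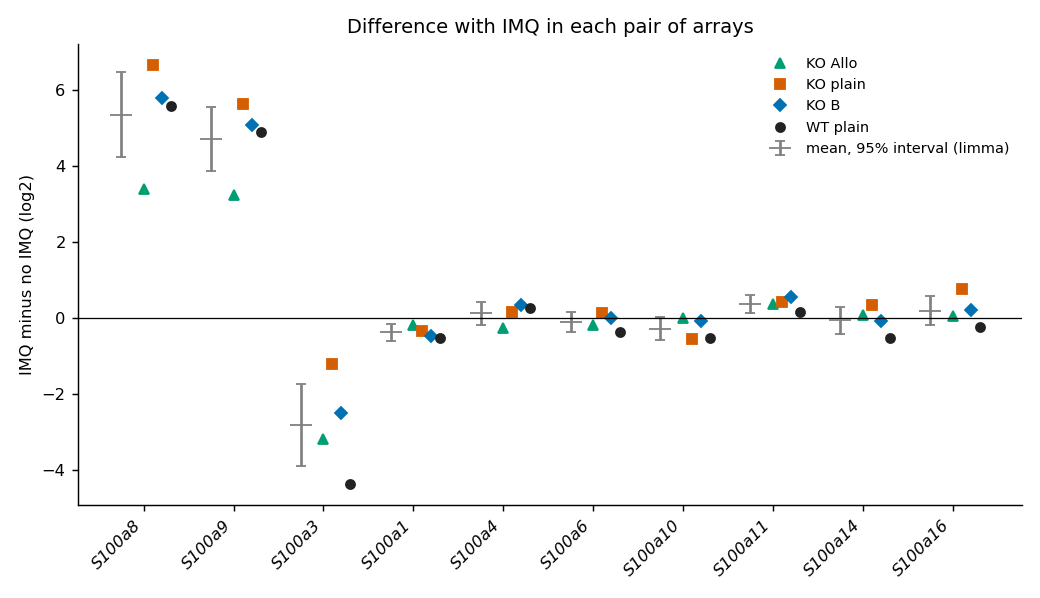
IMQ minus no IMQ in log2 units for each S100 member, with a coloured point for each arm and, in grey, the mean over the 4 arms with its 95% interval from limma. S100a8 and S100a9 lay between 3.22 and 6.65 in every arm, S100a3 between -4.38 and -1.22, and the other 7 members between -0.55 and 0.74.

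Set against the rest of the family, the calprotectin genes stood apart in every arm. The mean IMQ difference of S100a8 and S100a9 was 3.299 log2 units in KO Allo, 6.14 in KO plain, 5.42 in KO B and 5.23 in WT plain, against -0.43, -0.05, -0.27 and -0.77 for the mean of the other 8 members. The gap was 5.40 ± 1.13 log2 units (SD, n = 4 arms), and it was 5.05 with S100a3 left out of the other members. It is given as a description, without a test.

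Of 7 further S100 genes with a probe set, 0 passed in limma, and their median difference was -0.0031 log2 units. S100a7l2, a little-studied relative, measured -1.20 ± 0.52 (adjusted p = 0.280), and S100b, a glial and Schwann cell protein, -0.20 ± 0.15 (adjusted p = 0.532). S100a7a, chosen after its values were seen, is the mouse relative of human psoriasin. It read 6.56, 9.01, 8.18 and 7.07 on KO_IMQ_Allo, KO_IMQ, KO_IMQ_B and WT_IMQ, against 8.01, 6.12, 8.64 and 8.06 on KO_Allo, KO_CTRL, KO_CTRL-B and WT_CTRL. It was higher with IMQ in KO plain alone, and its mean difference was -0.0031 ± 0.66 (adjusted p = 0.998). S100a2, added once the annotation was read, measured 0.11 ± 0.12 (adjusted p = 0.706).

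The S100-fused type proteins carry an S100 domain at the start of a long repeat protein of the epidermis or hair. Of 7, 1 rose and 2 fell. Rptn, a cornified envelope precursor, rose by 4.19 ± 0.59 log2 units (adjusted p = 0.0250), Tchh, of the inner root sheath, fell by 3.64 ± 0.47 (adjusted p = 0.0207), and Crnn, of squamous epithelia, fell by 1.997 ± 0.31 (adjusted p = 0.0302).

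Genes for receptors and partners of S100 proteins come next. Of 8 calprotectin receptor genes 1 rose, Ly96, whose product MD-2 is the co-receptor of Toll-like receptor 4, by 0.80 ± 0.13 log2 units (adjusted p = 0.0337). Cd14, another co-receptor, measured 1.09 ± 0.49 (adjusted p = 0.295), and the list median was 0.06. Of 6 annexins and other partners 0 passed, and all lay between -0.14 (Ahnak, a scaffold bound by the S100a10 complex, ± 0.10, adjusted p = 0.493) and 0.23 (Anxa7, ± 0.10, adjusted p = 0.285).

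Calprotectin is made by myeloid cells and by keratinocytes, so markers of both are given beside it. Of 14 neutrophil markers 2 rose, Cxcr2, a chemokine receptor, by 1.99 ± 0.29 (adjusted p = 0.0268) and Fpr2, a formyl peptide receptor named after its values were seen, by 1.33 ± 0.22 (adjusted p = 0.0361), and Csf3r measured 1.61 ± 0.40 (adjusted p = 0.0865). Their median was 5.21 to 5.59 with IMQ and 4.84 to 5.19 without IMQ. Of the 14, 13 had a positive difference, and the median difference was 0.52 log2 units. Ly6g, a defining neutrophil marker named here after its values were seen, had the smallest difference of the 14. It read 3.16 to 3.71 with IMQ and 3.22 to 3.49 without IMQ, which overlap. Ly6g is dim here, below the median gene level of 6.06, and RMA compresses differences of dim genes. Fpr2 was dim too, at 3.17 to 3.55 without IMQ and 4.29 to 5.70 with IMQ, and it rose. Ltf, Ngp and Camp, also named after their values were seen, measured 0.16, 0.10 and 0.04, and Elane -0.25. Whether dimness hid a difference of Ly6g was not tested.

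Of 12 monocyte and macrophage markers 5 rose, led by Itgam, by 2.23 ± 0.34 (adjusted p = 0.0285), and Adgre1, by 2.004 ± 0.23 (adjusted p = 0.0157), and, named after their values were seen, C1qb, Csf1r and Lyz2 (0.85 to 1.21), with medians of 8.62 to 9.25 with IMQ and 7.42 to 7.90 without IMQ. Of 7 keratinocyte markers 0 passed, with medians of 12.10 to 12.46 with IMQ and 10.96 to 12.01 without IMQ. Krt14 measured 1.15 ± 0.25 (adjusted p = 0.0649) and Krt1 0.91 ± 0.20 (adjusted p = 0.0617). The part of each cell type in the rise of S100a8 and S100a9 was not tested.

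Among other marker lists, 0 of 7 fibroblast, 0 of 7 T cell, 0 of 6 endothelial and 0 of 7 adipocyte markers passed, with median differences of 0.11, 0.17, 0.38 and -0.74 log2 units. Of 14 skeletal muscle markers 5 fell, with a median difference of -1.37; Myh4, a fast myosin, measured -2.48 ± 0.71 (adjusted p = 0.123), and Actn3, of fast fibres, fell by 2.32 ± 0.45 (adjusted p = 0.0490).

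S100a3 is handled in the hair cuticle by Padi3, an enzyme that converts its arginines to citrulline in human hair. Padi3 fell by 2.30 ± 0.35 log2 units (adjusted p = 0.0294), and the hair keratin genes Krt35 (-2.17 ± 0.32, adjusted p = 0.0273), Krt82 (-2.01 ± 0.37, adjusted p = 0.0454) and Krt32 (-1.73 ± 0.27, adjusted p = 0.0300) fell too, which makes 4 of the 4 measured genes of that list. Of 17 hair follicle markers, which share Krt35 with that list and Tchh with the fused-type list, 14 fell, led by Tchh (-3.64 log2 units) and Krt71 (-3.48). The hair follicle median read 6.52, 5.19, 7.38 and 6.17 on KO_IMQ_Allo, KO_IMQ, KO_IMQ_B and WT_IMQ, against 8.83, 6.74, 9.77 and 9.36 on KO_Allo, KO_CTRL, KO_CTRL-B and WT_CTRL. KO_IMQ_B was the highest IMQ array, and KO_CTRL-B the highest and KO_CTRL the lowest array without IMQ, for this median and for S100a3. The other IMQ arrays were nearly tied for S100a3 but not for the median. On KO_IMQ_Allo, KO_IMQ and WT_IMQ, S100a3 read 6.36, 6.21 and 6.22, and the median 6.52, 5.19 and 6.17. With that median as a covariate, S100a3 measured 1.64 ± 0.65 log2 units (adjusted p = 0.868) in place of the fall. The median was itself lower with IMQ in every arm, so this fit cannot separate hair content from IMQ. The part of hair content in the S100a3 fall was not tested.

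**Figure D3:**
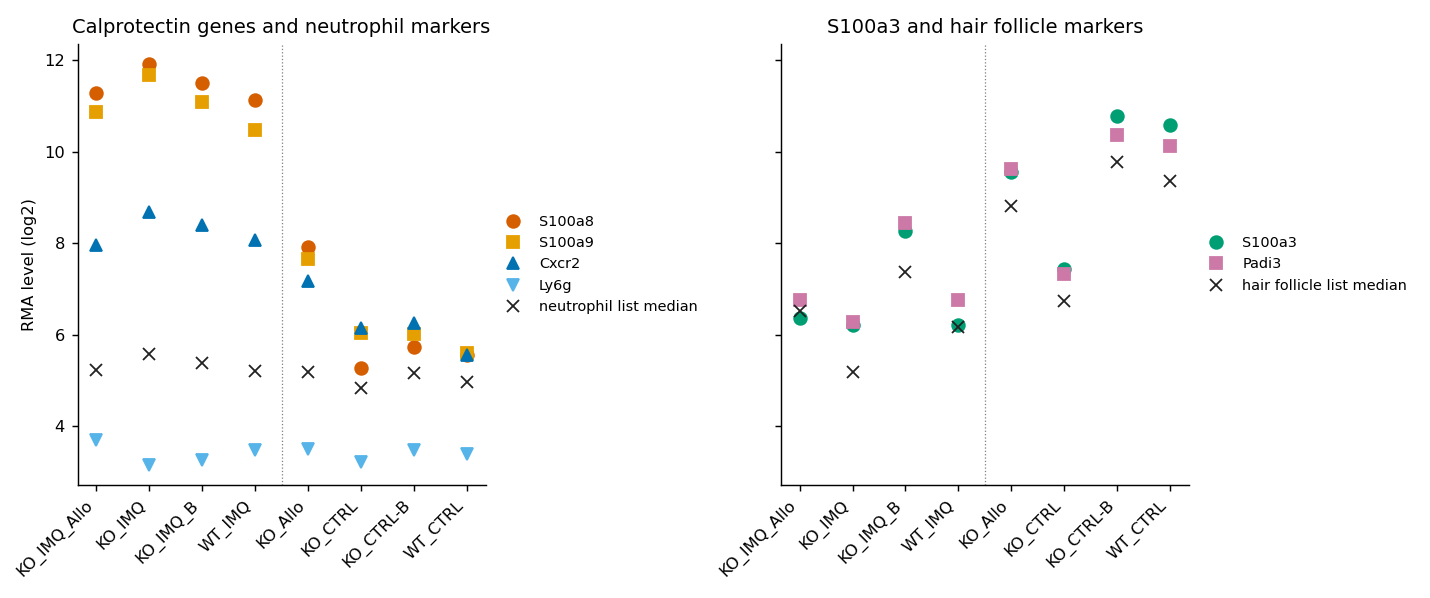
Levels in log2 RMA units on the 8 arrays (IMQ arrays left of the dotted line, arrays without IMQ right of it). Left, S100a8 and S100a9 with the neutrophil genes Cxcr2 and Ly6g and the neutrophil list median. Ly6g, a dim gene with the smallest IMQ difference of its list, stayed between 3.16 and 3.71. Right, S100a3 with Padi3 and the hair follicle list median, all highest on KO_CTRL-B.

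The genes whose levels, centred on their 8-array mean, lay closest to a member were found by the root mean square difference in log2 units. For S100a9 these were Serpinb3a (0.17), a protease inhibitor of the epidermis, Lce3f (0.44), a late cornified envelope gene, Sprr2b (0.49) and Sprr2e (0.49), small proline-rich envelope genes, and Lce3e (0.51), against a median of 2.44 over all genes. For S100a8 they were Sprr2d (0.37), Serpinb3a (0.42), the stefin gene Csta3 (0.59), Lce3f (0.67) and Sprr1b (0.78), against a median of 2.79, and S100a9 itself lay at 0.43. For S100a3 they were Krt72 (0.21), an inner root sheath keratin, Calhm4 (0.23), Prr9 (0.23), and the hair keratin-associated genes Krtap7-1 (0.27) and Krtap11-1 (0.29), against a median of 1.81. The nearest genes lie below these medians by how they were picked. Each median mostly reflects how widely the member itself varied between arrays, so the comparison is a description, not a test.

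The next comparisons give the response to IMQ in KO and in WT, with 1 effect for each genotype in a single fit. The KO effect averages KO Allo, with alloferon, together with KO plain and KO B, without it. In KO, S100a8 measured 5.27 ± 0.60 log2 units, S100a9 4.64 ± 0.45 and S100a3 -2.31 ± 0.36 (moderated SE from 3 arms, adjusted p = 0.0775, 0.0775 and 0.120). In WT, with 1 arm and the spread taken from the KO arms, S100a8 measured 5.57 ± 1.04, S100a9 4.88 ± 0.78 and S100a3 -4.38 ± 0.63 (adjusted p = 0.295, 0.295 and 0.255). In limma 0 of 10 members and 0% of all genes passed in either genotype. At an unadjusted p under 0.05, 5 of 10 members passed in KO, where 13.9% of all genes did, and 4 of 10 in WT, where 10.8% did. Without either array of KO Allo, S100a8 and S100a9 passed in KO (6.21 ± 0.24 and 5.34 ± 0.19, adjusted p = 0.00757 and 0.00663) and in WT (adjusted p = 0.0359 for both). Without KO_CTRL or KO_IMQ, S100a3 passed in KO (-2.85 ± 0.20, adjusted p = 0.0264) and in WT (adjusted p = 0.0246).

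The fourth comparison asks whether KO and WT responded differently to IMQ. The KO response takes in KO Allo, which had alloferon, while WT plain had none, so genotype and alloferon are mixed in it. KO minus WT, the response of S100a8 differed by -0.30 ± 1.20 log2 units and that of S100a9 by -0.24 ± 0.90 (limma adjusted p = 0.993 and 0.992). Their 95% intervals ran from -3.32 to 2.71 and from -2.51 to 2.02, so differences of several-fold in either direction are within the error. The sign and much of the error rest on KO Allo: without either of its arrays the differences were 0.64 ± 0.42 and 0.46 ± 0.32. The S100a3 response measured -2.31 in KO and -4.38 in WT, a difference of 2.07 ± 0.73 log2 units, with a 95% interval of 0.23 to 3.90 before adjustment (adjusted p = 0.983). In the same comparison 17 of 17 hair follicle markers and 4 of 4 hair cuticle genes had positive differences, with medians of 1.13 and 1.28 log2 units, against 0.02 over all genes. S100a3 levels with IMQ were alike on WT_IMQ (6.22), KO_IMQ (6.21) and KO_IMQ_Allo (6.36), and higher on KO_IMQ_B (8.27). Those without IMQ were 10.60 on WT_CTRL, against 7.43 on KO_CTRL, 9.55 on KO_Allo and 10.79 on KO_CTRL-B. The difference between genotypes thus depends on the level without IMQ as well. The part of hair content in the S100a3 difference was not tested.

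S100a14 and S100a16 differed by 0.64 ± 0.26 and 0.58 ± 0.33 (adjusted p = 0.983 for both), and the remaining 5 members by -0.21 to 0.34. In limma 0 of 10 members and 0% of all genes passed. At an unadjusted p under 0.05, 1 of 10 members and 4.12% of all genes did.

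The fifth comparison sets the level of KO arrays without alloferon against WT arrays at the same IMQ status. S100a9 was higher in KO on each array: 11.67 and 11.08 on KO_IMQ and KO_IMQ_B against 10.48 on WT_IMQ, and 6.05 and 6.01 on KO_CTRL and KO_CTRL-B against 5.60 on WT_CTRL. The difference was 0.66 ± 0.20 log2 units, with a 95% interval of 0.19 to 1.14 before adjustment (limma adjusted p = 0.956). S100a4 was also higher in KO on each array, by 0.29 ± 0.11 (adjusted p = 0.956). S100a8 differed by 0.26 ± 0.22 (adjusted p = 0.982), with KO_CTRL at 5.27 below WT_CTRL at 5.57, and S100a3 by -0.23 ± 1.07 (adjusted p = 0.998). In limma 0 of 10 members and 0% of all genes passed, and at an unadjusted p under 0.05, 2 of 10 members and 5.14% of all genes did.

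The sixth comparison concerns alloferon, a peptide first described in insects, in KO skin. Without IMQ, S100a8 read 7.92 on KO_Allo, against 5.27 on KO_CTRL and 5.74 on KO_CTRL-B, and S100a9 read 7.66 on KO_Allo, against 6.05 and 6.01. KO_Allo thus lay 2.41 and 1.62 log2 units above the mean of the other arrays. With IMQ, KO_IMQ_Allo lay 0.42 and 0.50 log2 units below the mean of KO_IMQ and KO_IMQ_B (-0.42 for S100a8 and -0.50 for S100a9), and below each of them.

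Over both IMQ states, alloferon minus none was 0.99 ± 0.60 log2 units for S100a8 and 0.56 ± 0.46 for S100a9 (limma adjusted p = 0.962 for both), and the other 8 members differed by -0.22 to 0.17. In limma 0 of 10 members and 0% of all genes passed. At an unadjusted p under 0.05, 0 of 10 members and 4.65% of all genes did.

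The last comparison tests whether the IMQ difference of KO Allo departed from that of KO plain and KO B. Its fit had terms for IMQ, alloferon and their interaction but no arm block. The error thus comes from the spread of KO_CTRL with KO_CTRL-B and of KO_IMQ with KO_IMQ_B, not from that of arm differences. The S100a8 difference was 3.38 log2 units in KO Allo, against 6.65 in KO plain and 5.77 in KO B, and the S100a9 difference was 3.22, against 5.62 and 5.07. KO Allo was the smallest for both genes. The departure was -2.83 ± 0.40 log2 units for S100a8, with a 95% interval of -3.86 to -1.81 before adjustment, and -2.13 ± 0.39 for S100a9, with an interval of -3.12 to -1.13. Neither passed over all genes (limma adjusted p = 0.650 and 0.712). S100a4 measured -0.52 ± 0.24 (adjusted p = 0.953) and S100a3 -1.32 ± 2.15 (adjusted p = 0.988). In limma 0 of 10 members and 0% of all genes passed, and at an unadjusted p under 0.05, 2 of 10 members, S100a8 and S100a9, and 5.46% of all genes did.

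Alloferon rests on 1 array per IMQ state, with the spread taken from the KO arrays without it. Marker list medians also differed between the KO arrays without IMQ, though KO_Allo was not apart in all of them. The keratinocyte median was 12.01 on KO_Allo, against 10.97 on KO_CTRL and 11.23 on KO_CTRL-B, and the monocyte and macrophage median was 7.90, against 7.42 and 7.70. The neutrophil median was 5.19 on KO_Allo, against 4.84 and 5.17. The muscle median was lowest on KO_Allo (8.61, against 11.15 and 8.92), as was the adipocyte median (7.05, against 8.47 and 7.64), and the hair follicle median lay between (8.83, against 6.74 and 9.77). The part of tissue content in the higher calprotectin levels of KO_Allo was not tested.

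**Figure D4:**
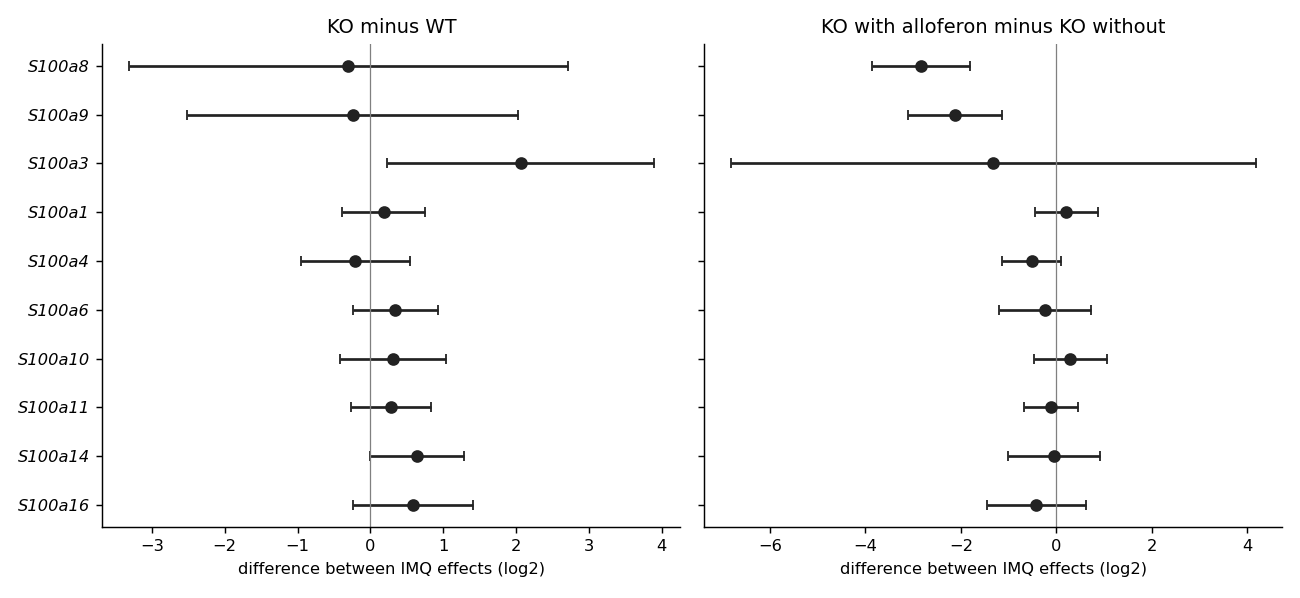
Difference between IMQ effects in log2 units for each S100 member, with its 95% interval from limma before adjustment over genes. Left, KO minus WT, fitted with the arm as a block and with the alloferon arm counted in KO. Right, KO with alloferon minus KO without, fitted with no arm block. For S100a8 and S100a9 the left intervals spanned 0 widely, and the right ones ran from -3.86 to -1.81 and from -3.12 to -1.13, while 0 members passed the adjusted test.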

How the data were processed

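The deposited table held log2 values of 41345 probe sets on 8 arrays. The submitters' processing notes name RMA, Affymetrix Power Tools and R 3.3.2, without roles. RMA gives all arrays 1 distribution and compresses differences of dim genes (array medians spanned 0.05 log2 units). Of the probe sets 23521 had 1 gene symbol, 1814 several and 16010 none. Where several probe sets named a gene, the brightest on average was used, which gave 22180 genes with no filter on low values. Precision is limited by having 8 arrays.

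Tests used limma 3.58.1 in R 4.3.3 (lmFit and eBayes, Benjamini-Hochberg over all genes, threshold 0.05), on 2 or 3 residual degrees of freedom. The arm was a block for IMQ effects, and IMQ status a covariate for levels. The departure of the IMQ difference with alloferon was fitted on IMQ, alloferon and their interaction, without an arm block. A ± not marked SD is limma's moderated SE. Separate animals per array are not stated, so p-values reflect array-to-array spread, perhaps technical. Named were all 10 members; called genes and the 2 largest IMQ differences of the family, receptor, partner, fused-type and hair cuticle lists; up to 2 genes per marker list; and 5 nearest patterns. Members and all 14 lists were chosen with earlier results of these data known. The scripts were tested on simulated data. Alternatives were probe set means, median centring, no dim genes, a trended robust prior, no arm block, hair follicle or muscle covariates, and leaving out each array.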

Additional observations from a re-analysis of the deposited data

Results flagged for a closer look

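S100a3 read 8.27 on KO_IMQ_B, against 6.21 to 6.36 on the other 3 IMQ arrays, a gap that took 93% of the range of the 4 arrays. The hair follicle marker median was also highest on KO_IMQ_B among the IMQ arrays (7.38, against 5.19 to 6.52), and its part in the S100a3 level was not tested. With 20 sets of 4 arrays examined, chance alone flags about 1 in 20.

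S100a16 measured -0.25 log2 units (IMQ minus no IMQ) in WT plain, against 0.05 to 0.74 in the 3 KO arms, so every KO arm went the opposite way from the WT arm. The test of that difference gave 0.58 ± 0.33 log2 units (KO minus WT, limma adjusted p = 0.983).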

How the results depend on the processing

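Of 358 member values recomputed, 19 lost a call, 13 gained one, 22 turned sign and 304 did none of these, but many repeat each other, since leaving out either array of an arm gives the same IMQ effect; the cause was not tested. For IMQ over 4 arms, 3 members were called, 0 to 3 when an array was left out, and 0 with either the hair follicle or the skeletal muscle median as a covariate. Both medians were themselves lower with IMQ in every arm, so the covariate fits cannot separate tissue content from IMQ. The hair follicle covariate gave 1.64 for S100a3, -0.12 for S100a4, 0.58 for S100a6 and 1.20 for S100a14, and the muscle covariate -0.036 for S100a4, 0.11 for S100a10 and -0.13 for S100a16. S100a8 and S100a9 measured 3.78 and 3.57 with the muscle covariate and 6.66 and 5.59 with the hair follicle covariate, and lost their calls (adjusted p = 0.365 to 0.868). The S100a3 call was also lost with a trended robust prior and with no arm block (adjusted p = 0.0935 and 0.0716). Leaving out an array moved S100a14 between -0.20 and 0.095 and S100a16 between -0.0017 and 0.33. Called members numbered 0 to 2 in KO and 0 to 2 in WT when an array was left out. In the other comparisons, leaving out an array moved KO minus WT responses between -0.99 and 0.64 (S100a8) and between -0.74 and 0.46 (S100a9). KO minus WT levels lay between -0.061 and 0.58 (S100a8) and between -1.48 and 1.02 (S100a3). Alloferon levels lay between -0.42 and 2.41 (S100a8) and between -0.50 and 1.62 (S100a9), and the S100a3 departure between -3.00 and 0.36. The calprotectin gap was 5.14 to 5.96 when an array was left out, 5.14 against the median of the other members and 5.05 without S100a3, and was not recomputed with the covariates. Over all genes, 685 were called for IMQ over 4 arms, 1028 without dim genes, 0 to 1307 when an array was left out and 0 with either covariate; in KO it was 0, 50 with a trended robust prior and 0 to 299 when an array was left out, and in WT 0, 1 and 0 to 41. The IMQ fits over arms were paired, with the arm as the block, except that of the alloferon departure, which had no block. Without the block, 2 members and 747 genes were called for IMQ over 4 arms.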
